A study of Mus musculus with 16 samples.

Results

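The Fc receptor genes are the 6 genes Fcgr1, Fcgr2b, Fcgr3, Fcgr4, Fcer1g and Fcgrt, taken as a fixed list by their symbols in the platform annotation. Each was measured by 1 probe set, and they stand among 22180 genes measured. Gene expression was profiled on 16 Affymetrix arrays of progenitor cells sorted from mouse bone marrow, with 4 arrays in each of 4 groups. The groups were common monocyte progenitors (cMoPs) of Dnmt1c/chip mice, cMoPs of Dnmt1+/+ control mice, macrophage and dendritic cell progenitors (MDPs) of Dnmt1c/chip mice, and MDPs of Dnmt1+/+ control mice, all from animals of 8 to 12 weeks. Both cell types were sorted as lineage-negative, cKit-high, CD115-positive and CD11b-negative cells, with Ly-6C present on cMoPs and absent on MDPs. The product of Dnmt1 copies DNA methylation onto newly made strands, and the c/chip genotype joins a null allele to a hypomorphic one in every cell of the animal, so cell types outside the sort were affected as well. Before staining, cells were incubated with purified antibody against CD16 and CD32, the proteins that Fcgr3 and Fcgr2b encode, to block binding of antibodies to Fc receptors. Whether each array stands for its own animal is not stated in the labels, and p-values therefore cover only the spread among the arrays, which may be technical.

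Fc receptors bind the constant part of antibodies and so link antibodies to phagocytosis, cell activation and antibody transport. The products of Fcgr1, Fcgr3 and Fcgr4 are activating receptors for IgG that signal through the Fc receptor gamma chain. This chain is the product of Fcer1g and carries the activation motif that Syk kinase binds. The product of Fcgr2b carries an inhibitory motif of its own and recruits the phosphatase SHIP-1, the product of Inpp5d. Fcgrt encodes the neonatal Fc receptor, a relative of MHC class I molecules that pairs with beta-2-microglobulin and returns IgG from endosomes to the cell surface. Monocytes and macrophages are main carriers of these receptors, and neutrophils, mast cells, natural killer cells and B cells carry subsets of them.

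Values are log2 levels from robust multi-array averaging (RMA), with array medians over genes between 3.64 and 3.76. Dnmt1 was lower in Dnmt1c/chip than in control cells, by 1.10 in MDPs and 0.91 in cMoPs (8.75 ± 0.27 against 9.86 ± 0.07 in MDPs, 8.88 ± 0.14 against 9.78 ± 0.09 in cMoPs, SD, n = 4). Among Dnmt1c/chip MDPs, replicates 1, 3 and 4 had high Xist (9.51 to 10.65) together with Y-linked signal (mean of 3 genes 5.27 to 6.42), which no other array did. The labels do not say whether RNA of several animals was pooled. In both control groups, replicates 1 and 2 had high Xist with low Y-linked signal, and replicates 3 and 4 had the reverse. In Dnmt1c/chip cMoPs, replicate 1 had high Xist, and replicates 2, 3 and 4 had Y-linked signal with low Xist. These transcripts were thus not balanced between the genotypes. Fits with the Y-linked level as a covariate are given at the end. In sorted populations, fewer cells of a type and less RNA per cell cannot be told apart. Levels of different genes come from different probes and were not set against each other.

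The levels of the 6 genes differed in how they varied among the groups, as the plot of all arrays shows. Fcgr2b, Fcgr3 and Fcgr4 followed the same order of group means, with Dnmt1c/chip cMoPs highest, then control cMoPs, then Dnmt1c/chip MDPs, and control MDPs lowest. Arrays of groups next to each other in this order overlapped at every step for Fcgr3 and Fcgr4. For Fcgr2b they overlapped between the cMoP groups only. None of these genes was called between the cMoP groups, so the order describes means and not separate levels. Fcer1g was at nearly equal means in both cMoP groups and lower in both MDP groups. Fcgrt was highest in control cMoPs, and Fcgr1 was level across the groups.

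**Figure D1:**
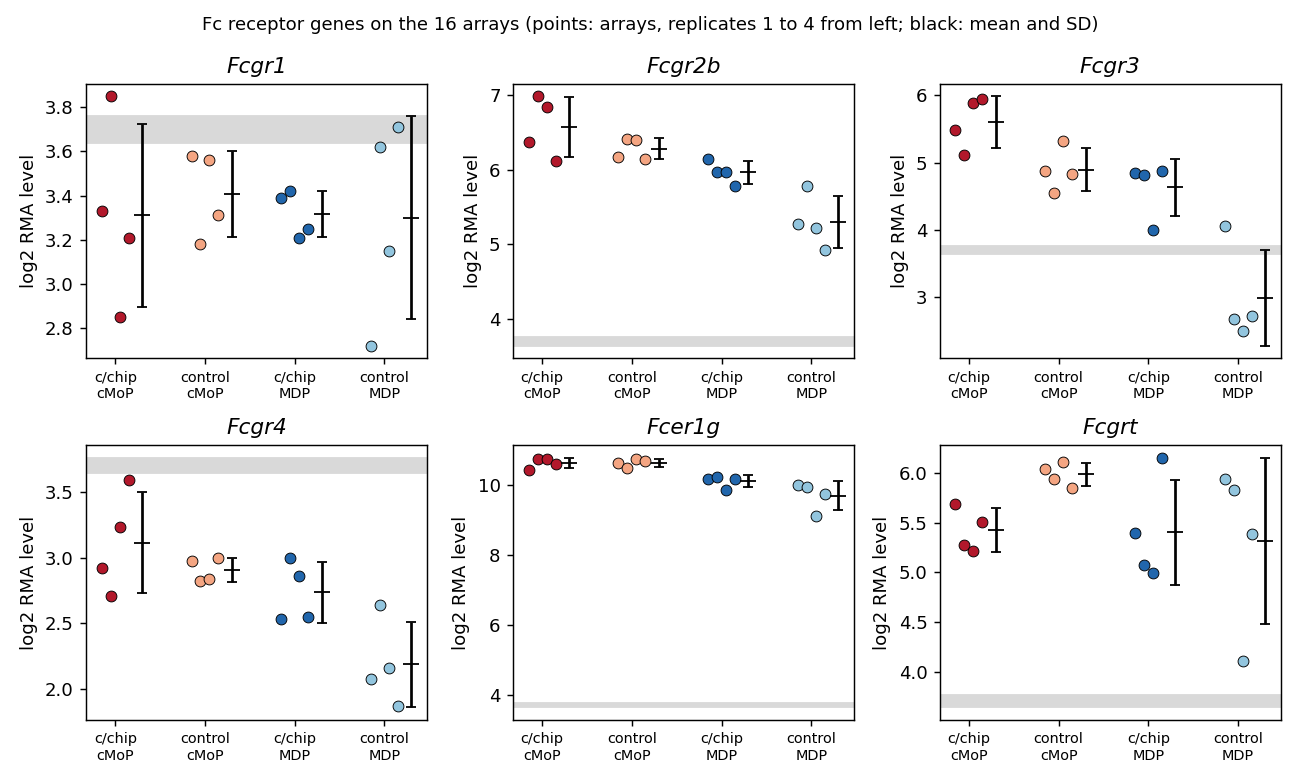
Log2 RMA level (vertical axes, scaled per gene) of each Fc receptor gene on each array, in the order Dnmt1c/chip cMoPs, control cMoPs, Dnmt1c/chip MDPs and control MDPs. Points are arrays, black bars are the mean and SD of 4 arrays, and the grey band spans the medians of the arrays over all genes (3.64 to 3.76). Fcgr3 was below that band on 3 of the control MDP arrays, and Fcgr4 lay below it on all 16 arrays.

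The control mice show how these genes differed between the progenitors. In control cMoPs against control MDPs, 4 of the 6 genes were higher, 0 were lower and 2 did not pass (limma, adjusted p under 0.05). Over all genes, 2.84% were called higher in this comparison. The median log2 difference of the 6 genes was 0.82, and that of all genes was -0.003. The 4 arrays of control cMoPs lay above the 4 arrays of control MDPs for 4 of the 6 genes, against 6.03% of all genes. The genes called were Fcgr2b, Fcgr3, Fcgr4 and Fcer1g.

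Among the activating receptors, Fcgr3 (the low-affinity IgG receptor III, CD16) had log2 levels of 4.88, 4.55, 5.32 and 4.83 in control cMoPs, against 4.05, 2.68, 2.50 and 2.72 in control MDPs. All control cMoP arrays were above all control MDP arrays, and replicate 1 of the control MDPs stood apart from the other 3. The means were 4.89 ± 0.32 in control cMoPs and 2.99 ± 0.71 in control MDPs (SD, n = 4), a log2 difference of 1.91 (SE 0.306, adjusted p = 0.000987). On replicates 2, 3 and 4 of the control MDPs, Fcgr3 lay below the array medians, and whether the probe set was above background there was not tested, so no exact fold is given. The call held in each of the 16 fits with a single array dropped, where the highest adjusted p was 0.0052.

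Fcgr4 (the mouse IgG receptor IV) had log2 levels of 2.97, 2.82, 2.84 and 3.0 in control cMoPs, against 2.08, 2.64, 2.16 and 1.87 in control MDPs. The groups did not overlap, but every value lay below the array medians, and whether the transcript was above background there was not tested. The log2 difference was 0.72 (SE 0.195, adjusted p = 0.0436), and the call was lost in 9 of the 16 fits with a single array dropped (adjusted p up to 0.133). Fcgr1 (the high-affinity receptor I, CD64) had 3.58, 3.18, 3.56 and 3.31 in control cMoPs, against 2.72, 3.62, 3.15 and 3.71 in control MDPs. Its groups overlapped and the log2 difference was 0.11 (95% interval -0.35 to 0.57, adjusted p = 0.877). Fcgr1 was below the array median on 14 of the 16 arrays.

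The shared signalling chain moved in the same direction. Fcer1g had log2 levels of 10.62, 10.48, 10.73 and 10.67 in control cMoPs, against 10.00, 9.93, 9.10 and 9.74 in control MDPs. The groups did not overlap, and replicate 3 was the lowest of the control MDPs. The log2 difference was 0.93 (SE 0.173, 1.91-fold, adjusted p = 0.00334), and the highest adjusted p was 0.0145 when single arrays were dropped.

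The inhibitory receptor was higher in control cMoPs as well. Fcgr2b had log2 levels of 6.18, 6.41, 6.40 and 6.15 in control cMoPs, against 5.28, 5.78, 5.22 and 4.93 in control MDPs. Every control cMoP array was above every control MDP array. The log2 difference was 0.98 (SE 0.196, 1.98-fold, adjusted p = 0.00563). For Fcgr2b, Fcgr3, Fcgr4 and Fcer1g the two-sided exact permutation test over 70 arrangements of the arrays gave p = 0.0286, the smallest it can give. The extracellular parts of the receptors encoded by Fcgr2b and Fcgr3 are closely related, and the probe sequences were not used here, so signal shared between these probe sets was not tested.

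The IgG transport receptor was not called. Fcgrt had log2 levels of 6.04, 5.94, 6.11 and 5.85 in control cMoPs, against 5.94, 5.83, 4.11 and 5.38 in control MDPs. Replicate 3 of the control MDPs was low and replicates 1 and 2 lay close to the cMoP values. The log2 difference was 0.67 (95% interval -0.01 to 1.35, adjusted p = 0.316), and it was 0.27 without control MDP replicate 3.

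**Figure D2:**
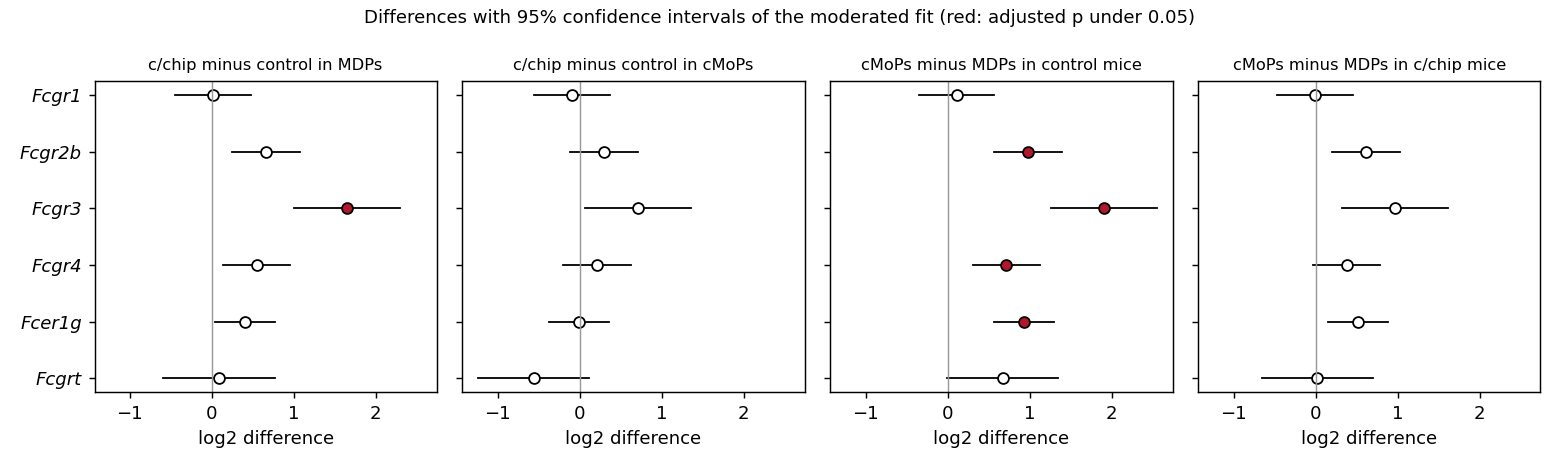
Log2 difference (horizontal axes) of each Fc receptor gene in 4 comparisons, with 95% intervals of the moderated fit as lines. Red points passed at an adjusted p under 0.05 and white points did not. In control mice 4 genes passed, led by Fcgr3 at 1.91, and between the genotypes Fcgr3 passed in MDPs at 1.65.

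Reduced Dnmt1 was then compared with control in MDPs. Of the 6 genes 1 was higher in Dnmt1c/chip MDPs, 0 were lower and 5 did not pass, while 1.26% of all genes were called higher. The median log2 difference was 0.48 for the 6 genes and 0.03 for all genes. The gene that rose was Fcgr3, with log2 levels of 4.84, 4.82, 4.0 and 4.88 in Dnmt1c/chip MDPs, against 4.05, 2.68, 2.50 and 2.72 in control MDPs. Replicate 3 of the Dnmt1c/chip MDPs lay just under replicate 1 of the control MDPs, and the other arrays of the groups did not overlap.

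The mean of Fcgr3 was 4.63 ± 0.42 in Dnmt1c/chip MDPs and 2.99 ± 0.71 in control MDPs (SD, n = 4). The log2 difference was 1.65 (SE 0.306, adjusted p = 0.0109) against control MDP levels not shown to be above background, and the exact permutation test gave p = 0.0571. The call held in each of the 16 fits without 1 array (adjusted p up to 0.0397). It was lost when only the 8 MDP arrays were fitted (difference 1.65, adjusted p = 0.103). With replicate 2, the Dnmt1c/chip MDP array without high Xist, as the single array of its group, the difference was 1.83 (SE 0.483, adjusted p = 0.111). That fit takes the lone array to vary like the arrays of the other groups. The Dnmt1c/chip MDP level overlapped that of control cMoPs (4.55 to 5.32).

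Fcgr2b, the inhibitory receptor gene, had log2 levels of 6.15, 5.97, 5.97 and 5.78 in Dnmt1c/chip MDPs, against 5.28, 5.78, 5.22 and 4.93 in control MDPs. On the unrounded scale the 4 Dnmt1c/chip arrays all lay above the 4 control arrays, as 4.18% of all genes did, and the exact permutation test gave p = 0.0286. The log2 difference of 0.67 (SE 0.196, 95% interval 0.25 to 1.08) missed the threshold (adjusted p = 0.0986 over all genes). Of the 16 fits without 1 array it passed in 1, that without control MDP replicate 2 (difference 0.82, adjusted p = 0.0431). The highest adjusted p among those fits was 0.226, without control MDP replicate 4 (difference 0.54). A fit of the 2 groups alone did not pass (adjusted p = 0.198), and a fit with replicate number as a block did (adjusted p = 0.0485).

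Fcgr4 had 2.53, 3.0, 2.86 and 2.55 in Dnmt1c/chip MDPs, against 2.08, 2.64, 2.16 and 1.87 in control MDPs. These ranges overlapped and the log2 difference was 0.55 (SE 0.195, adjusted p = 0.179). Fcer1g had 10.17, 10.22, 9.85 and 10.17 in Dnmt1c/chip MDPs, against 10.00, 9.93, 9.10 and 9.74 in control MDPs. Of its 4 Dnmt1c/chip arrays 3 were above all control arrays, with a log2 difference of 0.41 (SE 0.173, adjusted p = 0.284). Fcgrt had 5.39, 5.07, 4.99 and 6.15 in Dnmt1c/chip MDPs, against 5.94, 5.83, 4.11 and 5.38 in control MDPs (difference 0.09, 95% interval -0.59 to 0.77). Fcgr1 had 3.39, 3.42, 3.21 and 3.25 in Dnmt1c/chip MDPs, against 2.72, 3.62, 3.15 and 3.71 in control MDPs (difference 0.02, 95% interval -0.44 to 0.48).

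Genes on marker lists named for cell types differed between the same MDP groups. Some listed genes are carried by the sorted progenitors themselves, such as the gene of the sort marker cKit on the mast cell and basophil list. Over all genes, 1.26% were called higher and 0.685% lower between these groups. The mean level of 14 neutrophil markers was 7.72 to 9.70 on the Dnmt1c/chip MDP arrays, against 5.76 to 7.63 on the control MDP arrays, and 5 of the 14 were called higher, among them Elane, neutrophil elastase (log2 difference 1.68), and Cebpe, a granulocyte transcription factor gene (1.63). The mean of 12 mast cell and basophil markers was 5.18 to 6.03 in Dnmt1c/chip MDPs, against 4.47 to 4.94 in control MDPs, with 5 called higher, among them Cpa3 (2.74) and Hdc (2.04). Of these mast cell and basophil markers, 3 were below the array median on all Dnmt1c/chip MDP arrays and 5 on all control MDP arrays. Of the neutrophil markers, 0 were below it on all Dnmt1c/chip MDP arrays and 1 on all control MDP arrays. Neutrophil markers also differed between the sorted progenitors. In cMoPs against MDPs, 5 of the 14 were called higher and 0 lower in control mice, and 2 higher and 2 lower in Dnmt1c/chip mice. Elane was called higher in cMoPs of both genotypes, and Cebpe in those of control mice. Of the 12 mast cell and basophil markers, 1 was called higher and 2 lower in control cMoPs against control MDPs. In Dnmt1c/chip mice 0 were called higher and 3 lower. Cpa3 was called lower in cMoPs of both genotypes, and Hdc higher in those of control mice.

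Of 10 T and NK cell markers 2 were higher, Gzmb and Nkg7 (2.35 and 2.0), with means of 4.04 to 4.31 in Dnmt1c/chip MDPs and 3.67 to 3.83 in control MDPs. Of 11 dendritic cell markers 2 were lower, Flt3 and Siglech (-1.96 and -2.75), and 0 of 9 B cell markers passed. Flt3 was also called lower in cMoPs than in MDPs of both genotypes. Of 14 monocyte markers, Ly6c2 was higher (1.06) and Irf8 lower (-0.58), with list means of 8.24 to 8.47 in Dnmt1c/chip MDPs and 8.24 to 8.59 in control MDPs. Within groups, deviations from group means over the 16 arrays gave Pearson r = 0.61 between Fcgr2b and the neutrophil markers (Spearman rho = 0.48, and r = 0.45 without the 2 arrays farthest from the median). Without the same arrays, r was -0.01 for Fcgr3 (-0.03 with them), -0.52 for Fcgr4 (-0.18 with them), 0.21 for Fcer1g (0.33 with them), 0.36 for Fcgrt (0.38 with them) and 0.15 for Fcgr1 (0.28 with them). The arrays share normalization and these values are a description. The part of these cell type markers in the differences of the Fc receptor genes was not tested.

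**Figure D3:**
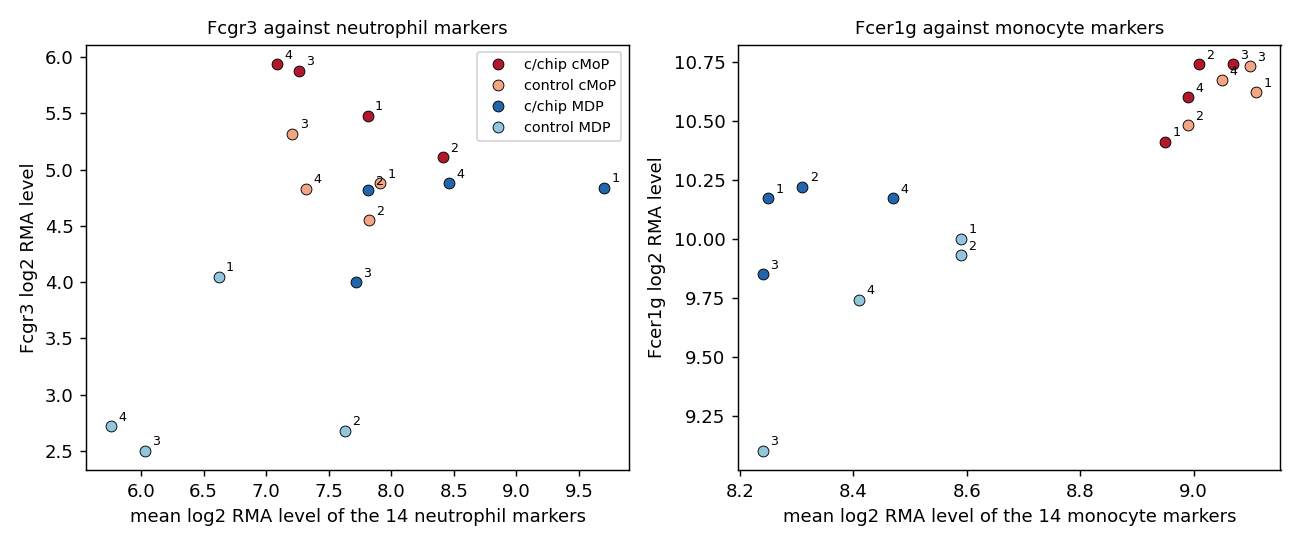
Left, log2 level of Fcgr3 against the mean log2 level of 14 neutrophil markers on each array, and right, log2 level of Fcer1g against the mean of 14 monocyte markers. Colours are the groups and numbers the replicates. The Dnmt1c/chip MDPs lie between 7.72 and 9.70 on the neutrophil axis and the control MDPs between 5.76 and 7.63.

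In cMoPs, 0 of the 6 genes passed between Dnmt1c/chip and control, where 0.113% of all genes were called (limma). At an unadjusted p under 0.05 there were 1052 genes, 4.74% of all genes, which is not above the share that chance alone gives. The median log2 difference was 0.10 for the 6 genes and -0.01 for all genes. The neutrophil marker mean was 7.09 to 8.41 in Dnmt1c/chip cMoPs and 7.21 to 7.91 in control cMoPs, and 0 of the 14 were called. Fcgr3 had the most positive difference, with log2 levels of 5.48, 5.11, 5.88 and 5.94 in Dnmt1c/chip cMoPs, against 4.88, 4.55, 5.32 and 4.83 in control cMoPs. Of its 4 Dnmt1c/chip arrays 3 were above all control arrays. The difference was 0.71 (SE 0.306, 95% interval 0.06 to 1.35), with an unadjusted p of 0.0335 and an adjusted p of 1, and the exact permutation test gave p = 0.0571.

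Fcgrt had 5.69, 5.27, 5.21 and 5.51 in Dnmt1c/chip cMoPs, against 6.04, 5.94, 6.11 and 5.85 in control cMoPs. All 4 Dnmt1c/chip arrays were below all 4 control arrays, as were 1.93% of all genes, and the exact permutation test gave p = 0.0286. The log2 difference was -0.56 (SE 0.321, 95% interval -1.24 to 0.12, adjusted p = 1). The SE is shared over all groups, and the SD of Fcgrt was 0.22 in Dnmt1c/chip cMoPs and 0.11 in control cMoPs, against 0.53 in Dnmt1c/chip MDPs and 0.84 in control MDPs.

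The other 4 genes overlapped between Dnmt1c/chip and control cMoPs. Fcgr2b had 6.37, 6.99, 6.84 and 6.12 in Dnmt1c/chip cMoPs, against 6.18, 6.41, 6.40 and 6.15 in control cMoPs (difference 0.29, 95% interval -0.12 to 0.71). Fcgr4 had 2.92, 2.71, 3.23 and 3.59 in Dnmt1c/chip cMoPs, against 2.97, 2.82, 2.84 and 3.0 in control cMoPs (difference 0.21, 95% interval -0.20 to 0.62). These control values were tightly grouped and the Dnmt1c/chip values spread to both sides of them. Fcer1g had 10.41, 10.74, 10.74 and 10.60 in Dnmt1c/chip cMoPs, against 10.62, 10.48, 10.73 and 10.67 in control cMoPs (difference -0.003, 95% interval -0.37 to 0.36). Fcgr1 had 3.33, 3.85, 2.85 and 3.21 in Dnmt1c/chip cMoPs, against 3.58, 3.18, 3.56 and 3.31 in control cMoPs (difference -0.10, 95% interval -0.56 to 0.37).

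In Dnmt1c/chip mice, 0 of the 6 genes passed between cMoPs and MDPs (limma). Over all genes, 3.29% were called in either direction and 1.8% were called higher. At an unadjusted p under 0.05 there were 3518 genes, 15.9% of all genes. Fcgr3 and Fcer1g did not overlap between the cell types (2 of 6 genes, against 4.95% of all genes), with log2 differences of 0.97 (SE 0.306, adjusted p = 0.105) and 0.52 (SE 0.173, adjusted p = 0.128). Fcgr2b was at a difference of 0.61 (SE 0.196, adjusted p = 0.112), and its ranges overlapped (6.12 to 6.99 in Dnmt1c/chip cMoPs, 5.78 to 6.15 in Dnmt1c/chip MDPs). For Fcgr4 the difference was 0.38 (95% interval -0.03 to 0.79), for Fcgrt 0.02 (-0.66 to 0.70) and for Fcgr1 -0.01 (-0.47 to 0.45). Fcgr3 passed without control MDP replicate 1 (adjusted p = 0.0275) and Fcer1g without control MDP replicate 3 (adjusted p = 0.0372), arrays that enter this comparison through the shared spread alone.

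The genotype effects in the progenitors were compared directly by the interaction term. None of the 6 genes passed, and 0.0586% of all genes did (limma, 1890 genes or 8.52% at an unadjusted p under 0.05). The estimate was negative for each of the 6, meaning a lower genotype difference in cMoPs than in MDPs. For Fcgr3 it was -0.94 (SE 0.432, 95% interval -1.85 to -0.03, unadjusted p = 0.0444, adjusted p = 0.576). For Fcgrt it was -0.65 (SE 0.454), for Fcer1g -0.41 (SE 0.245), for Fcgr2b -0.37 (SE 0.277), for Fcgr4 -0.34 (SE 0.275) and for Fcgr1 -0.12 (SE 0.31). A difference of the Fc receptor genes' genotype effects between MDPs and cMoPs was thus not detectable over all genes tested. The comparisons share groups, so these estimates are not independent of those above.

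The promoters of the genes are shown because Fcgr2b, Fcgr3, Fcgr4 and Fcer1g moved together between control progenitors, and because DNA methylation, which Dnmt1 maintains, is placed on CpG. All 6 genes had an entry in the RefSeq-based promoter table (GRCm38.p6), and each line below holds the 150 bases before the annotated gene start, 5′ to 3′ on the gene's strand. Capitals mark the PU box GAGGAA (or TTCCTC on the other strand), a core site of the myeloid factor PU.1. The windows are chr1:171059404-171059553 (minus strand) for Fcgr3, chr1:171018776-171018925 (plus strand) for Fcgr4, chr1:170976072-170976221 (minus strand) for Fcgr2b, chr1:171234350-171234499 (minus strand) for Fcer1g and chr3:96293970-96294119 (minus strand) for Fcgr1.
Fcgr3: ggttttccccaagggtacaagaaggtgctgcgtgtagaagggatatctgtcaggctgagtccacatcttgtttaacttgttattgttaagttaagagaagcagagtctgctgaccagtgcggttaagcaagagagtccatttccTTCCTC
Fcgr4: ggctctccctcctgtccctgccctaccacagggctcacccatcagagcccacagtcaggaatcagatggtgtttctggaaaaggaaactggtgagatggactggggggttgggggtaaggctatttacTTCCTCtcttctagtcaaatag
Fcgr1: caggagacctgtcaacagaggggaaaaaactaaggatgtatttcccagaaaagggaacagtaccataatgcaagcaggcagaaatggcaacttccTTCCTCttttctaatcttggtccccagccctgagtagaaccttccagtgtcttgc
Fcgr2b: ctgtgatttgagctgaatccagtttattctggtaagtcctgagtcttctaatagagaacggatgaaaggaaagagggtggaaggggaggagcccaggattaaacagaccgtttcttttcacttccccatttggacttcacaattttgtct
Fcer1g: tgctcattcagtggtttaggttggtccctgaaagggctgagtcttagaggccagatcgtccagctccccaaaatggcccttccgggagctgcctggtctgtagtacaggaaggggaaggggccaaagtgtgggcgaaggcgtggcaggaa

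The PU box stood in the promoters of the activating receptors Fcgr1, Fcgr3 and Fcgr4, starting 55, 6 and 22 bases before the gene start. These letters were not found in the windows of Fcgr2b, Fcer1g and Fcgrt, and they occur in 28.3% of 27025 promoters of the same 300-base length. Fcgr3 had 2 annotated windows, and in the other one the PU box started 15 bases before the gene start. The 300-base windows held 1 CpG for Fcgr1, 2 for Fcgr4, 4 for Fcgr3, 5 for Fcgrt, 6 for Fcgr2b and 7 for Fcer1g, against a median of 7 over all promoters. Methylation was not measured in these data, and a link of these counts to the differences in level was not tested.

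Fcgr2b, Fcgr4 and Fcgr3 follow one another on chromosome 1 among the measured protein-coding genes, and Fcer1g lies further along the same chromosome after 6 other measured genes. Of the 12 measured neighbours plotted around them, 0 passed in any of the 4 comparisons (limma, adjusted p). Over all genes 0.113% to 4.56% were called in these comparisons, so a count of 0 among 12 genes is near that share. In control cMoPs against control MDPs the neighbours' log2 differences ran from -0.14 to 0.75. The largest belonged to Cfap126, a cilium gene next to Fcgr3, at 0.75 (SE 0.285, adjusted p = 0.179). In Dnmt1c/chip against control MDPs Cfap126 was at 0.97 (SE 0.285, adjusted p = 0.0996), and the 12 neighbours ran from -0.11 to 0.97. Fcrla and Fcrlb, Fc receptor-like genes of B cells on the other side of Fcgr2b, were at -0.03 and 0.02 in that comparison. Near Fcgr1 on chromosome 3, Txnip was lower in cMoPs of both genotypes (-1.15 in Dnmt1c/chip, -1.03 in control). Near Fcgrt on chromosome 7, Rcn3 was lower in control cMoPs (-0.85).

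**Figure D4:**
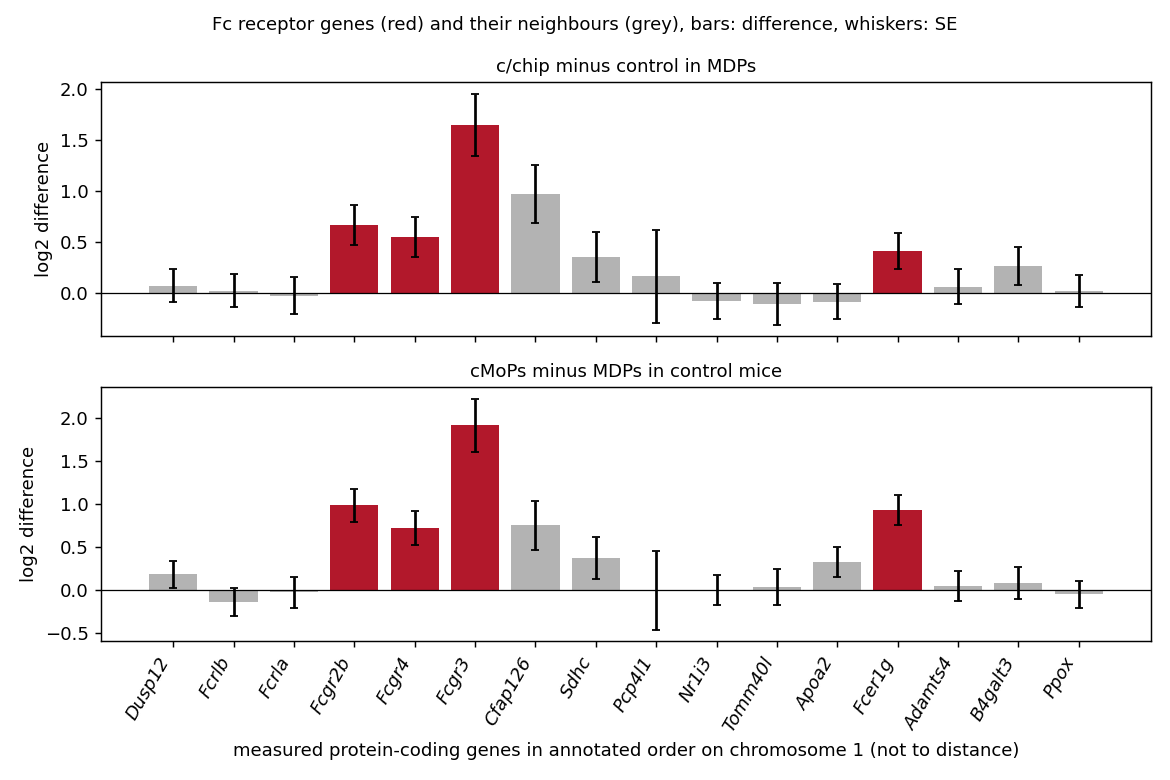
Log2 differences (vertical axes, whiskers are SE) of the Fc receptor genes (red) and the measured genes around them (grey), in annotated order along chromosome 1 and not to distance, for Dnmt1c/chip against control MDPs (top) and control cMoPs against control MDPs (bottom). Fcgr3 has the tallest bar in both panels (1.65 and 1.91), and no grey bar passed at an adjusted p under 0.05.

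Other genes of the Fc receptor pathway were read from lists chosen for their known roles. Over all genes, 1.26% were called higher and 0.685% lower in Dnmt1c/chip against control MDPs. The shares were 2.84% and 1.71% in control cMoPs against control MDPs, and 1.8% and 1.49% in Dnmt1c/chip cMoPs against MDPs. A count of 1 in lists this short is not read as a result about the list. Of 12 other immunoglobulin-binding and Fc receptor-like genes, 1 was higher in Dnmt1c/chip MDPs than in control MDPs. It was Ms4a2, the beta chain of the IgE receptor of mast cells and basophils (5.51 ± 0.93 in Dnmt1c/chip MDPs, 3.87 ± 0.30 in control MDPs, difference 1.64, SE 0.362, adjusted p = 0.0292). None of the 12 passed in the other 3 comparisons, and the median difference lay between -0.11 and 0.10 in all 4. Of 8 measured genes listed as receptors that pair with the gamma chain, Clec4e was higher in Dnmt1c/chip MDPs. Clec4e encodes Mincle, a receptor for microbial glycolipids that signals through the Fcer1g product, and had 7.40 ± 0.53 in Dnmt1c/chip MDPs and 5.50 ± 0.55 in control MDPs (difference 1.90, SE 0.368, adjusted p = 0.0141). Clec4a2 on the same list was higher in cMoPs than in MDPs in Dnmt1c/chip mice (1.79, SE 0.46, adjusted p = 0.0423) and in control mice (3.24, SE 0.46, adjusted p = 0.000306). Its product carries an inhibitory motif of its own, so it does not fully match the name of that list.

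Of 22 measured signalling genes 0 passed in either genotype comparison, with medians of 0.03 in MDPs and 0.10 in cMoPs (all genes 0.03 and -0.01). In control cMoPs against control MDPs, 3 were higher, 2 lower and 17 did not pass, with a median of 0.015 (all genes -0.003). Lcp2, the adaptor SLP-76, had 8.50 ± 0.12 in control cMoPs and 7.27 ± 0.21 in control MDPs (difference 1.23, SE 0.165, adjusted p = 0.000185). Prkcd, a protein kinase C gene, was 0.52 higher (SE 0.117, adjusted p = 0.0137). The Src-family kinase gene Fyn was lower, with 4.59 ± 0.08 in control cMoPs and 6.06 ± 0.33 in control MDPs (difference -1.47, SE 0.188, adjusted p = 0.00011). The phospholipase gene Plcg1 was lower too (-1.40, SE 0.251, adjusted p = 0.00246).

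In Dnmt1c/chip cMoPs against Dnmt1c/chip MDPs, 4 signalling genes were higher, 2 lower and 16 did not pass, with a median of 0.053 (all genes -0.044). Lat, the adaptor of T and mast cells, was lower (3.63 ± 0.46 in Dnmt1c/chip cMoPs, 6.53 ± 0.78 in Dnmt1c/chip MDPs, difference -2.90, SE 0.375, adjusted p = 0.000215). Lcp2 (0.98, SE 0.165), Prkcd (0.66, SE 0.117) and Fyn (-1.01, SE 0.188) also passed.

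Of 12 genes that restrain receptor signalling, 1 was lower in control cMoPs than in control MDPs. It was Inpp5d, whose product SHIP-1 acts below the Fcgr2b receptor (8.40 ± 0.06 in control cMoPs, 8.91 ± 0.12 in control MDPs, difference -0.52, SE 0.127, adjusted p = 0.0245). The ubiquitin ligase gene Cbl was higher in Dnmt1c/chip cMoPs than in Dnmt1c/chip MDPs (0.54, SE 0.133, adjusted p = 0.0325), and 0 of the 12 passed between genotypes. Of 14 phagocytosis genes, Dnm2, Lamp1 and Lamp2 were higher in cMoPs than in MDPs of both genotypes. Lamp2, a lysosomal membrane protein gene, differed by 0.73 in Dnmt1c/chip mice and 0.85 in control mice, and 0 of the 14 passed between genotypes.

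The monocyte markers gave the setting of the cell type comparison. In control cMoPs against control MDPs, 6 of 14 monocyte markers were higher and 1 lower, with Klf4, a monocyte transcription factor gene, at 2.68 (SE 0.287) and Ly6c2, which marks the sort gate, at 1.84 (SE 0.136). In the same comparison 5 of 14 neutrophil markers were higher and 5 of 11 dendritic cell markers lower. Within groups, Fcer1g went with the mean of the 14 monocyte markers from array to array (Pearson r = 0.84 and Spearman rho = 0.76 between deviations from group means over 16 arrays, r = 0.80 without the 2 arrays farthest from the median). For Fcgrt r was 0.82, and 0.59 without those 2 arrays, control MDP replicate 3 and Dnmt1c/chip MDP replicate 4. For the other members r was 0.56 for Fcgr3, 0.24 for Fcgr2b, 0.16 for Fcgr4 and -0.06 for Fcgr1 (0.50, 0.39, 0.32 and -0.17 without those arrays, in the same order). With the dendritic cell markers, deviations gave r = 0.57 for Fcer1g, 0.70 for Fcgrt, 0.48 for Fcgr2b, 0.17 for Fcgr3, 0.16 for Fcgr4 and 0.05 for Fcgr1. These values share the array and its normalization and are given as a description.

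Among 10109 named genes above the median level, the genes most like Fcgr3 over the 16 arrays were Ifngr1, the interferon gamma receptor gene (Pearson r = 0.951), Anxa2, an annexin gene (0.948), and Hp, haptoglobin (0.938). For Fcer1g they were Nucb2 (0.958), Atrn (0.953) and Fuca1, a lysosomal fucosidase gene (0.952). For Fcgr2b they were Smpdl3a (0.916), Phyh (0.91) and Fam160a2 (0.908), and for Fcgr4 S100a1 (0.916), Itm2b (0.898) and Cstb (0.878). Fcgrt was most like Hrob (0.84), Hnrnpab (0.826) and Naxe (0.824), and Fcgr1 most like Ube2v1 (0.795), Zbtb21 (0.754) and Gpn3 (0.744). Among the members, Fcgr3 and Fcer1g correlated at 0.86 and Fcgr2b and Fcer1g at 0.82 over the arrays, while Fcgr1 stayed between -0.15 and 0.13 with the other 5. These values hold the differences between the 4 groups as well. Once group means were taken out, Fcgr3 and Fcer1g were at 0.59, Fcgr2b and Fcgr3 at -0.17, Fcer1g and Fcgrt at 0.72, and Fcgr1 and Fcgr3 at -0.50.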

How the data were processed

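RNA of sorted cells (300 ng total RNA per array) was labelled with the Affymetrix 3′ IVT Express protocol, per the labels. The values used are the log2 levels that the authors deposited in the series matrix, with a single value for each probe set on each array. The tools affy, RMA and limma are named in the submitters' processing notes. Versions, settings and genome build: not given in the sources used here. The series' design text names an array type whose probe set IDs differ in form from those of the table and its platform annotation, and every gene name here rests on that annotation. A deposited second table has 16 value columns that match no sample label and was not used.

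Of 41345 probe sets, 23521 had 1 gene symbol in the platform annotation, 1820 several and 16004 none. Where a gene had several probe sets (1082 genes), the one with the highest mean was kept, which left 22180 genes. The members had 1 each. Groups were taken from source names, since the control cMoP titles hold both genotype names. Titles gave the replicate numbers. Same-numbered arrays did not all deviate together, so the numbers were not used as pairs.

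One limma 3.58.1 model (R 4.3.3) took the 16 arrays as 4 groups over all genes, with eBayes and Benjamini-Hochberg adjustment over all genes (threshold 0.05). It was tested on simulated data for the MDP genotype comparison (22180 genes, 50 genes per size of change): a log2 change of 0.5 was found in 2% of the genes given it, a change of 1 in 66%, of 2 in 92% and of 3 in 100%. False calls made up 10 of 140. In the simulation few genes were changed and the noise was independent between genes, while the real MDP genotype comparison had 432 calls. These shares are therefore not recovery rates of the real comparison. Members were also compared by two-sided exact permutation tests. Precision is limited by the number of arrays. The members, lists, naming rule and tests were chosen with earlier results of these data known. By the rule, the text names all members, from each pathway list up to 4 called genes with the lowest adjusted p, up to 2 called genes of a marker list, Dnmt1, neighbouring genes and the 3 genes most like each member. Listed genes with no value, such as Pira2, Lilra6, Lyn, Arpc1b, Actr2, Clec9a and Cd247, were not analysed here. Alternatives are given at the end.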

Additional observations from a re-analysis of the deposited data

Results flagged for a closer look

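In 3 of 24 sets of 4 arrays (6 genes in 4 groups), 1 array stood apart from the other 3 by more than the 95% limit of Dixon's test for the gap over the range, where chance gives about 5% of sets. Fcgr3 in Dnmt1c/chip MDPs was at 4.0 in replicate 3 and at 4.82 to 4.88 in the others. Fcgr3 in control MDPs was at 4.05 in replicate 1 and at 2.50 to 2.72 in the others. Fcer1g in Dnmt1c/chip MDPs was at 9.85 in replicate 3 and at 10.17 to 10.22 in the others. Without Dnmt1c/chip MDP replicate 3 the Fcgr3 difference between Dnmt1c/chip and control MDPs was 1.86 (adjusted p = 0.00533), and without control MDP replicate 1 it was 2.0 (adjusted p = 0.000561).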

How the results depend on the processing

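Between Dnmt1c/chip and control MDPs, 1 of the 6 genes was called, 2 with the replicate block (Fcgr3, and Fcgr2b at adjusted p = 0.0485), 0 in a fit of the 2 groups alone, 0 when Dnmt1c/chip MDP replicate 2 alone stood for its group (chosen after seeing the data), and 1 to 2 when 1 array was left out. With the Y-linked level as a covariate, Fcgr3 was at 1.67 in the MDP genotype comparison (SE 0.32, limma, adjusted p = 0.0167). It was the 1 gene called there. A single Y-linked term cannot adjust for Dnmt1c/chip MDP replicates 1, 3 and 4, which had both high Xist and Y-linked signal. In Dnmt1c/chip against control cMoPs the count was 0 to 0 without 1 array, and for the interaction 0 to 0. In control cMoPs against control MDPs it was 4, and 3 to 4 without 1 array, with Fcgr4 the gene lost. Fcgr4 was also lost with the replicate block (limma, adjusted p = 0.0717). The same held with the Y-linked level as a covariate (0.0559) and with a term for replicates 1 and 2 against 3 and 4 (0.0515), both added after seeing the data. In Dnmt1c/chip cMoPs against MDPs the count was 0, and 0 to 1 without 1 array. Same-numbered arrays correlated at -0.045 to 0.214 in their deviations, with at least 1 pair of each comparison under 0.1, so the numbers were not taken as pairs. As a hint from the data and not the design, arrays correlated best with their own number in 1 of 4 cases for the MDP genotype comparison, 3 of 4 for cMoPs, 3 of 4 for control cell types and 4 of 4 for Dnmt1c/chip cell types.

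Signs turned only in differences that were not called. In Dnmt1c/chip against control MDPs, Fcgr1 was at -0.00218 with quantile normalization, -0.00012 with median centring and -0.0124 with the Y-linked level as a covariate (added after seeing the data), and Fcgrt at -0.0252 with array weights and -0.241 with replicate 2 alone. In cMoPs, Fcer1g was at 0.0216 with centring and 0.0063 with the Y-linked covariate. Between the Dnmt1c/chip cell types, Fcgr1 was at 0.084 with quantile normalization and 0.0539 with centring, and Fcgrt at -0.0156 with quantile normalization. Without 1 array, Fcgr1 ran from -0.173 to 0.157 (genotype, MDPs), -0.278 to 0.0579 (genotype, cMoPs), -0.0845 to 0.245 (control cell types), -0.19 to 0.146 (Dnmt1c/chip cell types) and -0.298 to 0.0761 (interaction), Fcgrt from -0.313 to 0.297 (genotype, MDPs) and -0.115 to 0.269 (Dnmt1c/chip cell types), and Fcer1g from -0.0504 to 0.0669 (genotype, cMoPs). The cause was not tested.

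Over all genes, the 432 calls of the MDP genotype comparison became 264 with array weights, 64 with 2 groups alone and 165 with replicate 2 alone (214 to 505 without 1 array). The 25 calls in cMoPs became 60 with array weights (15 to 28), the 730 between Dnmt1c/chip cell types became 482 and 372 with 2 groups and replicate 2 alone (437 to 761), and the 13 of the interaction became 25 with replicate 2 alone (5 to 33). With 4 arrays a group, changes of 0.5 on the log2 scale were seldom recovered in simulated data. Fewer genes were changed there than were called in the real MDP genotype comparison, so that rate does not carry over to it.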
